A study of Mus musculus with 23 samples.

Results

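The genes described here build and run the mitotic spindle or carry chromosomes through mitosis, and they were followed in mouse macrophages given a saturated fatty acid, a monounsaturated fatty acid or a bacterial lipid. They were chosen by symbol from a list of 59 genes, each represented by the probe set of highest mean over all arrays among those that carry a single gene symbol. Of the 59 listed genes, 58 were measured, out of 19938 genes tested in all. Ccnb1, which encodes cyclin B1, had no probe set with a single symbol and was not analysed here. The list was put together with earlier results of these data known.

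Macrophages were grown from the bone marrow of wild-type C57BL/6 mice, with the growth factor M-CSF at 10 ng/mL for 6 days in medium with 10% fetal bovine serum. M-CSF was then taken away, and adherent cells were treated 1 to 3 days later, so that every group had lost the factor before treatment. Stearic acid (SA) is saturated. Oleic acid (OA) has an equally long chain and differs from it by a double bond. Both were given at 250 µM on bovine serum albumin (BSA) at 125 µM. The groups were SA for 20 h, OA for 20 h, SA for 5 h, OA for 5 h and lipopolysaccharide (LPS, a bacterial product sensed through TLR4) at 1 ng/mL for 5 h, with 4 arrays each, and BSA alone at 125 µM for 5 h, the vehicle, with 3 arrays. For LPS and vehicle the sample labels give 5 h, while the text of the series gives 4 h. No vehicle of 20 h was among the groups, so a comparison of 20 h with vehicle combines treatment and time. BSA is recorded for the acid and vehicle groups and not for LPS. Comparisons of LPS with vehicle or with SA may therefore also differ in BSA.

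The values are log2 expression per probe set on 23 single-channel arrays, and a difference of 1 is a 2-fold difference. Array medians over the tested genes lay between 4.18 and 4.33. Replicate 2 of SA at 20 h stood apart, with an SD of its deviations from the group means of 0.215, whereas its 3 companions had 0.153 to 0.161, and each leading count is also given without it. The labels speak of replicate wells and the series text of biological replicates, so p-values rest on a spread between samples that may be technical. With 3 or 4 arrays per group, their number limits precision. Of 8 macrophage markers, all were measured, with mean levels per array between 9.07 and 9.99, well above the array medians. The mean levels of the marker lists of stromal cells, mast cells, dendritic cells, lymphocytes and erythroid cells lay between 2.16 and 3.94, below those medians. That of 4 marrow progenitor genes lay between 3.93 and 4.40, around those medians. That of 7 neutrophil genes lay between 6.33 and 7.02, above those medians on every array. Which cells gave the neutrophil signal was not tested. A gene was called risen or fallen at an adjusted p under 0.05 in limma's moderated test, with Benjamini-Hochberg adjustment over the 19938 genes of each comparison.

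In mitosis, duplicated chromosomes are condensed, attached to spindle microtubules through kinetochores, and pulled apart. The spindle assembly checkpoint holds the cell before anaphase until every kinetochore is attached, and then the anaphase-promoting complex with its activator Cdc20 releases separase and ends mitosis. Most of these genes are transcribed late in the cell cycle and are low in resting cells, so their RNA marks dividing cells. Macrophages grown from marrow divide in response to M-CSF, and LPS is known to halt that division. Many of the promoters carry the CHR element, recognised by MuvB complexes, and CCAAT boxes, bound by NF-Y.

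Promoter sequences show what the genes have in common outside their expression. Of the 58 measured genes, 50 had a promoter in the RefSeq table of build GRCm38.p6, as a window of 300 bases from 250 before to 50 after the first listed start. The core letters of the CHR element, TTTGAA, stood on either strand in 64.0% of the 50 promoters, against 16.5% of all 17491 protein-coding genes in the table. The letters CCAAT stood in 70.0% against 39.0%, and at 2 or more places in 40.0% against 13.5%. Both motifs stood together in 54.0% against 6.68%. The E2F site letters TTCCCGC or TTGGCGC stood in 24.0% against 8.79%. TTGGCGC can overlap a CCAAT read on the other strand, since both can share the letters TTGG. A match is a description of the letters and not evidence of binding.

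The promoters below are those of 7 genes the results turn on, shown 5′ to 3′ on the strand of the gene, with the letters of these motifs in capitals on whichever strand they lie. On the other strand CCAAT reads as ATTGG, and TTTGAA reads as TTCAAA. Cdk1 (chr10:69352863-69353162, minus strand), Cdc20 (chr4:118437294-118437593, minus strand), Cenpa (chr5:30666636-30666935, plus strand) and Plk1 (chr7:122159185-122159484, plus strand) are shown because they hold both motifs and fell with SA. Bub3 (chr7:131560120-131560419, plus strand) is shown because it holds both and was not called. Bub1 (chr2:127831810-127832109, minus strand) and Birc5 (chr11:117848987-117849286, plus strand) are shown because they fell by a large amount, Bub1 with CCAAT alone and Birc5 with none of these letters in the window.
Cdk1: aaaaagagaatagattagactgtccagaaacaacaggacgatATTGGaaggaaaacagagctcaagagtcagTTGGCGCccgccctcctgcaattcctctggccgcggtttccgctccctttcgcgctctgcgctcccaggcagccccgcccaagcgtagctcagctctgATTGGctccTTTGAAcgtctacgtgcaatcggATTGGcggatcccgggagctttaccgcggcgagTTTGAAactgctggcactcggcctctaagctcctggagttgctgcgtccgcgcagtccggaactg
Plk1: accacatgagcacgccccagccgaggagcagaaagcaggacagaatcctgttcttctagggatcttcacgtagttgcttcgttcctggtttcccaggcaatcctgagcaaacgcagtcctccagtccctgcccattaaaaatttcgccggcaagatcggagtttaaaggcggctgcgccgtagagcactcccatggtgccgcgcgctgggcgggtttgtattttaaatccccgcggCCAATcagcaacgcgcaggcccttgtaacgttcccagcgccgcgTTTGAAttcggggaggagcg
Cdc20: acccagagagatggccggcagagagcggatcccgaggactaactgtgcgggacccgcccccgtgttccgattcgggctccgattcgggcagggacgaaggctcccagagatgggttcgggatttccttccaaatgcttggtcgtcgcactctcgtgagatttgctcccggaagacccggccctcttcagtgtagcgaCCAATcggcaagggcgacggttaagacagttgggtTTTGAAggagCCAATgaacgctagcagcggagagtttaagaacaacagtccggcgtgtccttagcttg
Cenpa: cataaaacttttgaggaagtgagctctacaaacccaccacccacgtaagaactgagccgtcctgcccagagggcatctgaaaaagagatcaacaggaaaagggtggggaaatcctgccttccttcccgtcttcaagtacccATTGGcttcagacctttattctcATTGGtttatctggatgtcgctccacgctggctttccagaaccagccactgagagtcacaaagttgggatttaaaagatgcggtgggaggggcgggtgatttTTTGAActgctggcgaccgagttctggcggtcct
Bub1: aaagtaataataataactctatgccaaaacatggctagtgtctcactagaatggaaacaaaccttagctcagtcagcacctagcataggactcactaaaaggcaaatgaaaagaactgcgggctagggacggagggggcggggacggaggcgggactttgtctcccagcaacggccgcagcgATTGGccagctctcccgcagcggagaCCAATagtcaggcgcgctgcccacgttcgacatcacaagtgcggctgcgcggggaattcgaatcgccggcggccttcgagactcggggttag
Bub3: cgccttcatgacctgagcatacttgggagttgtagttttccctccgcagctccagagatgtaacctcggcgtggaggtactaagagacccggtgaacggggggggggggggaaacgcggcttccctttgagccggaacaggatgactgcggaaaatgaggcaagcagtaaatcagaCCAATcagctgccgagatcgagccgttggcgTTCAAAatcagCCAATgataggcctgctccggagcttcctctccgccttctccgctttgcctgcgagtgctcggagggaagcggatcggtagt
Birc5: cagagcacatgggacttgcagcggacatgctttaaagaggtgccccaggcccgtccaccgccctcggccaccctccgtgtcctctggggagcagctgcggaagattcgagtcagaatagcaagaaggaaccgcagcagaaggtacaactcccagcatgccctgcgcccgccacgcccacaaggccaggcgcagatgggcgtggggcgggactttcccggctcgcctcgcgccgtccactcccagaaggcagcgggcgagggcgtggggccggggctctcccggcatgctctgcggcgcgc

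Whether a saturated and a monounsaturated acid of the same length act differently on these genes was asked by comparing SA with OA at the same dose and time. At 20 h, 54 of the 58 genes fell with SA and none rose, where 8.95% of all tested genes fell and 7.72% rose. The median log2 change of the 58 genes was -1.41, against 0.03 over all tested genes, and 41 genes fell at least 2-fold. The share of all tested genes that fell at least 2-fold is not given here, so nothing is read from that count. Without replicate 2 of SA at 20 h, 54 genes again fell and the median was -1.39. Every SA array lay on one side of every OA array for 54 of the 58 genes, a separation found for 20.2% of all tested genes. Among all tested genes ordered by the size of their fall, the 100 largest falls held 19 of the 58 genes and the 500 largest held 48. In bulk RNA, fewer cells that express a gene and less RNA per cell cannot be told apart.

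**Figure D1:**
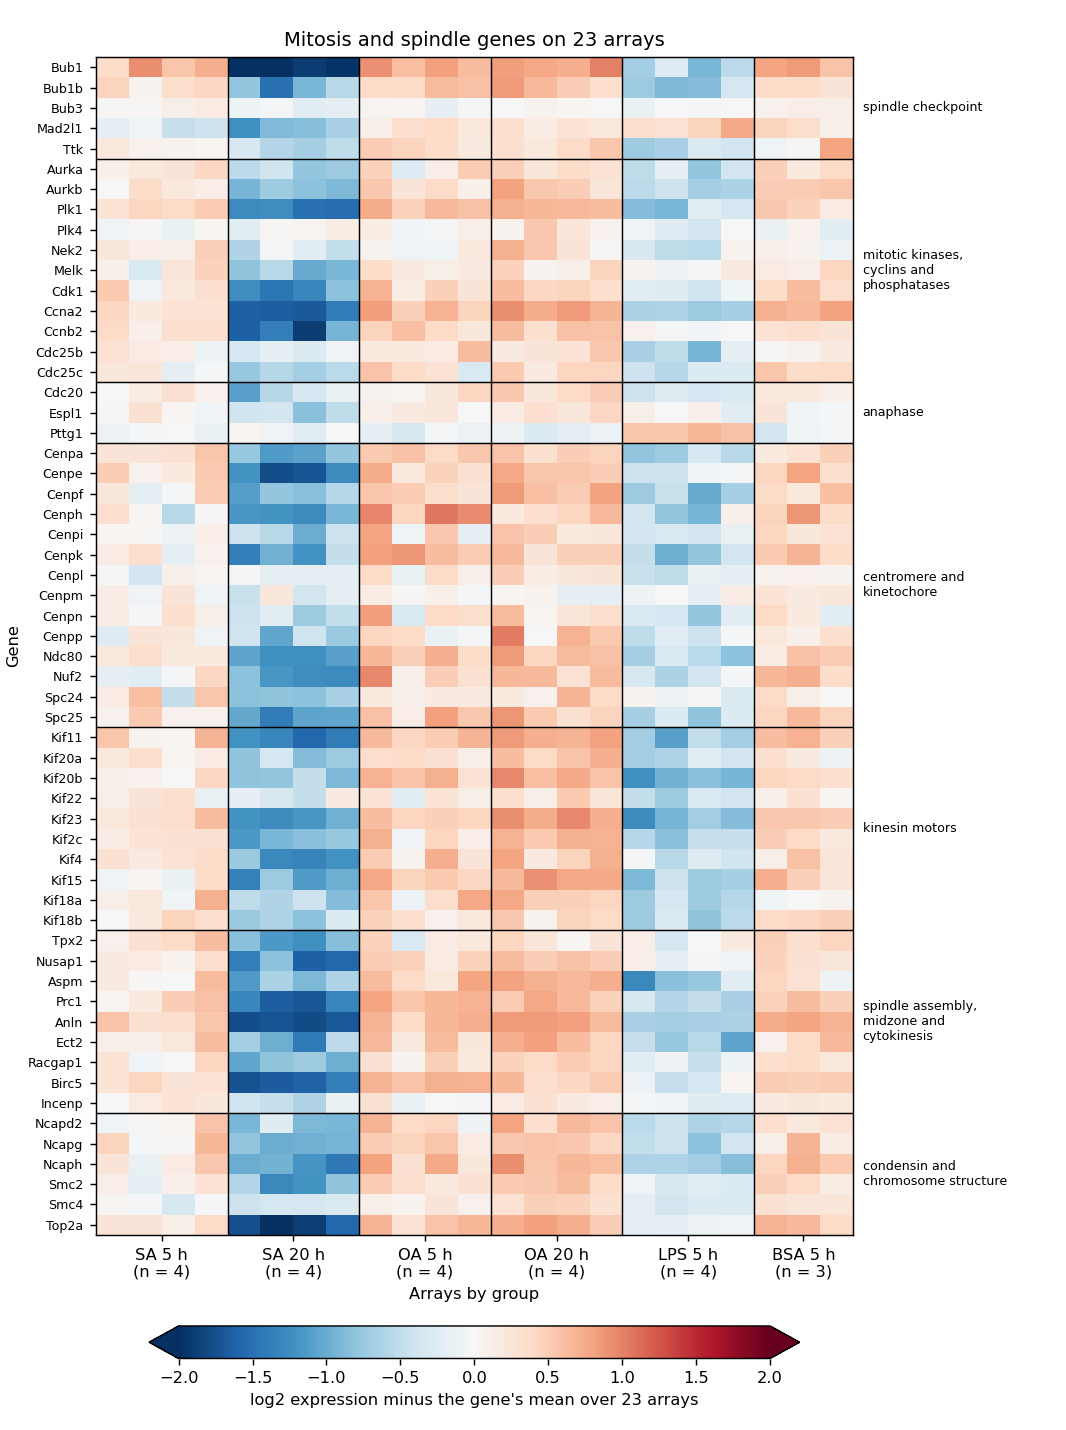
Log2 expression of the 58 genes on the 23 arrays, shown per gene as the difference from that gene's mean over all arrays, with genes grouped by role down the page and arrays by treatment group across it. The 4 arrays of SA at 20 h are low for most genes, the 4 LPS arrays are lower than vehicle for 56 of 58 genes on average, and the arrays of OA at either time lie near those of vehicle.

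The spindle checkpoint genes fell in 4 of 5 cases with SA at 20 h, with a median log2 change of -1.14. Bub1, a kinase that recruits checkpoint proteins to kinetochores, read 3.07, 2.29, 3.22 and 3.15 on the SA arrays, against 5.95, 5.89, 5.84 and 6.12 on the OA arrays. The highest SA array lay more than 2 log2 units under the lowest OA array, and the change was -3.02 ± 0.17 (SE, limma adjusted p = 1.12e-12), the second largest fall of all tested genes. Bub1b, the checkpoint protein BubR1, fell by 1.52 on the log2 scale, and Ttk, the kinase Mps1 at the top of the checkpoint, fell by 0.88. Mad2l1 encodes Mad2, the part of the checkpoint complex that binds Cdc20. Its values were 5.12, 5.46, 5.50 and 5.70 with SA, against 6.68, 6.50, 6.62 and 6.55 with OA. The groups did not overlap, at a change of -1.14 ± 0.12 (SE, adjusted p = 1.09e-07).

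Mitotic kinases, cyclins and phosphatases fell in 10 of 11 measured cases, with a median of -1.09. Ccna2, cyclin A2, which acts in S phase and at entry into mitosis, stood at 4.89, 4.87, 4.83 and 5.12 with SA, against 7.45, 7.26, 7.36 and 7.19 with OA. No array of one group came near the other, and the level was 5.23-fold lower with SA (log2 change -2.39 ± 0.09 SE, adjusted p = 2.54e-15). Plk1, a kinase of mitotic entry, spindle and cytokinesis, stood at 3.94, 3.97, 3.71 and 3.68 with SA, against 5.92, 5.88, 5.85 and 5.83 with OA, which is 4.13-fold lower. Ccnb2, cyclin B2, a partner of Cdk1, spread more widely with SA, at 5.90, 6.17, 5.63 and 6.60, against 8.16, 7.85, 8.12 and 8.10 with OA. Even so, its groups did not overlap, and it fell by 1.98 on the log2 scale (adjusted p = 5.10e-11). Cdk1, the kinase that drives mitosis, was measured at 5.06, 4.84, 5.00 and 5.48 with SA, against 6.92, 6.72, 6.75 and 6.64 with OA, a change of -1.66 ± 0.14 (SE). The aurora kinases act at the centrosome (Aurka) and, in the chromosomal passenger complex, at the centromere (Aurkb), and they changed by -0.95 and -1.36. The smallest called fall of the group was that of Cdc25b, a phosphatase that activates Cdk1. It read 4.33, 4.50, 4.40 and 4.61 with SA, against 4.85, 4.94, 4.95 and 5.22 with OA, with groups apart and a change of -0.53.

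Of 3 genes of anaphase, 2 fell with SA at 20 h. Cdc20, the activator of the anaphase-promoting complex, read 3.84, 4.36, 4.60 and 4.79 with SA, against 5.48, 5.16, 5.33 and 5.42 with OA. All SA arrays were lower, at a change of -0.95 ± 0.14 (SE, adjusted p = 1.30e-05). Espl1, separase, which cuts cohesin, changed by -0.81. Pttg1, securin, which holds separase inactive until anaphase, was the only one of the 58 genes with a positive change. Its values were 7.98, 7.87, 7.72 and 7.93 with SA, against 7.83, 7.66, 7.76 and 7.82 with OA. The groups overlapped, and the change was 0.11 with a 95% interval of -0.07 to 0.29 (adjusted p = 0.522).

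Centromere and kinetochore genes fell in 13 of 14 cases, with a median of -1.43. The largest fall was that of Cenpe, a kinesin that brings chromosomes to the spindle equator, at -2.09 ± 0.15 (SE). Its 4 SA arrays lay between 3.46 and 4.03, against 5.72 to 6.00 for the OA arrays. All 4 subunits of the Ndc80 complex, which holds the microtubule at the kinetochore, fell together, with changes of -1.78 for Ndc80, -1.69 for Nuf2, -1.67 for Spc25 and -1.11 for Spc24. Ndc80 itself was measured at 4.70, 4.53, 4.53 and 4.67 with SA, against 6.62, 6.20, 6.40 and 6.35 with OA. Cenpa, the histone H3 variant that marks the centromere, was measured at 5.85, 5.48, 5.53 and 5.83 with SA, against 7.17, 6.92, 7.09 and 7.05 with OA, a change of -1.39 ± 0.11 (SE). In both genes the groups lay clear of each other. Genes of the constitutive centromere network spread over a wide range, with changes of -1.54 for Cenph, -1.47 for Cenpk, -1.21 for Cenpp, -0.97 for Cenpi, -0.78 for Cenpn and -0.43 for Cenpl, all called. Cenpm, of the same network, read 4.16, 4.82, 4.22 and 4.42 with SA, against 4.63, 4.67, 4.43 and 4.40 with OA. These groups overlapped, and the change of -0.13, with a 95% interval of -0.37 to 0.12, was not called (adjusted p = 0.602).

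All 10 kinesin motors fell, with a median of -1.52. Kif11 (Eg5), which slides antiparallel microtubules to make the spindle bipolar, stood at 4.05, 3.95, 3.68 and 3.85 with SA, against 6.10, 5.98, 5.93 and 6.05 with OA. That is 4.39-fold lower with no overlap (adjusted p = 1.08e-11). Kif23, a motor of the central spindle needed for cytokinesis, changed by -1.99 ± 0.11 (SE) and Kif15, which backs up Kif11, by -1.82 ± 0.14 (SE). Changes of -1.67 for Kif4, the chromokinesin of the midzone, and -1.57 for Kif2c, a microtubule depolymerase at centromeres, stood near the median. At the other end was Kif22, a chromokinesin, at 3.99, 3.84, 3.68 and 4.33 with SA, against 4.49, 4.28, 4.68 and 4.39 with OA. Its groups overlapped in 1 array, and the change was -0.50 (adjusted p = 0.0124).

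The 9 genes of spindle assembly, midzone and cytokinesis all fell, with a median of -1.55. Anln, anillin, a scaffold of the contractile ring, had the smallest adjusted p of the 58 genes. Its values were 3.27, 3.31, 3.25 and 3.35 with SA, against 5.88, 5.89, 5.86 and 5.67 with OA. The spread within SA was 0.04 (SD, n = 4), and the change was -2.53 ± 0.09 (SE, adjusted p = 3.08e-16). Prc1, which bundles midzone microtubules, read 3.87, 3.53, 3.46 and 3.88 with SA, against 5.68, 5.95, 5.83 and 5.64 with OA. Birc5 (survivin), a member of the chromosomal passenger complex, read 4.73, 4.80, 4.85 and 5.11 with SA, against 7.13, 6.80, 6.89 and 6.97 with OA. Both genes lay apart between the groups, by -2.09 ± 0.12 (SE) for Prc1 and -2.07 ± 0.10 (SE) for Birc5. Another passenger protein, Incenp, changed by only -0.59 ± 0.10 (SE, adjusted p = 0.000119). Tpx2, which nucleates microtubules around chromosomes and activates Aurka, read 4.62, 4.31, 4.23 and 4.59 with SA, against 5.88, 5.69, 5.49 and 5.70 with OA, a change of -1.25 ± 0.15 (SE).

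All 6 genes of chromosome structure fell, with a median of -1.46. Top2a, the topoisomerase that untangles sister chromatids, stood at 4.92, 4.66, 4.80 and 5.12 with SA, against 7.42, 7.50, 7.41 and 7.18 with OA. It was 5.66-fold lower with SA (log2 change -2.50 ± 0.11 SE, adjusted p = 1.33e-14). Of the 5 condensin subunits, Ncaph fell most, by 1.82 on the log2 scale, followed by Smc2 at -1.48, Ncapg at -1.44 and Ncapd2 at -1.33. Smc4, the partner of Smc2 in the condensin core, fell least, at 6.89, 6.95, 6.96 and 7.01 with SA, against 7.58, 7.78, 7.76 and 7.61 with OA. The groups did not overlap, and the change was -0.73 ± 0.08 (SE, adjusted p = 3.03e-07).

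**Figure D2:**
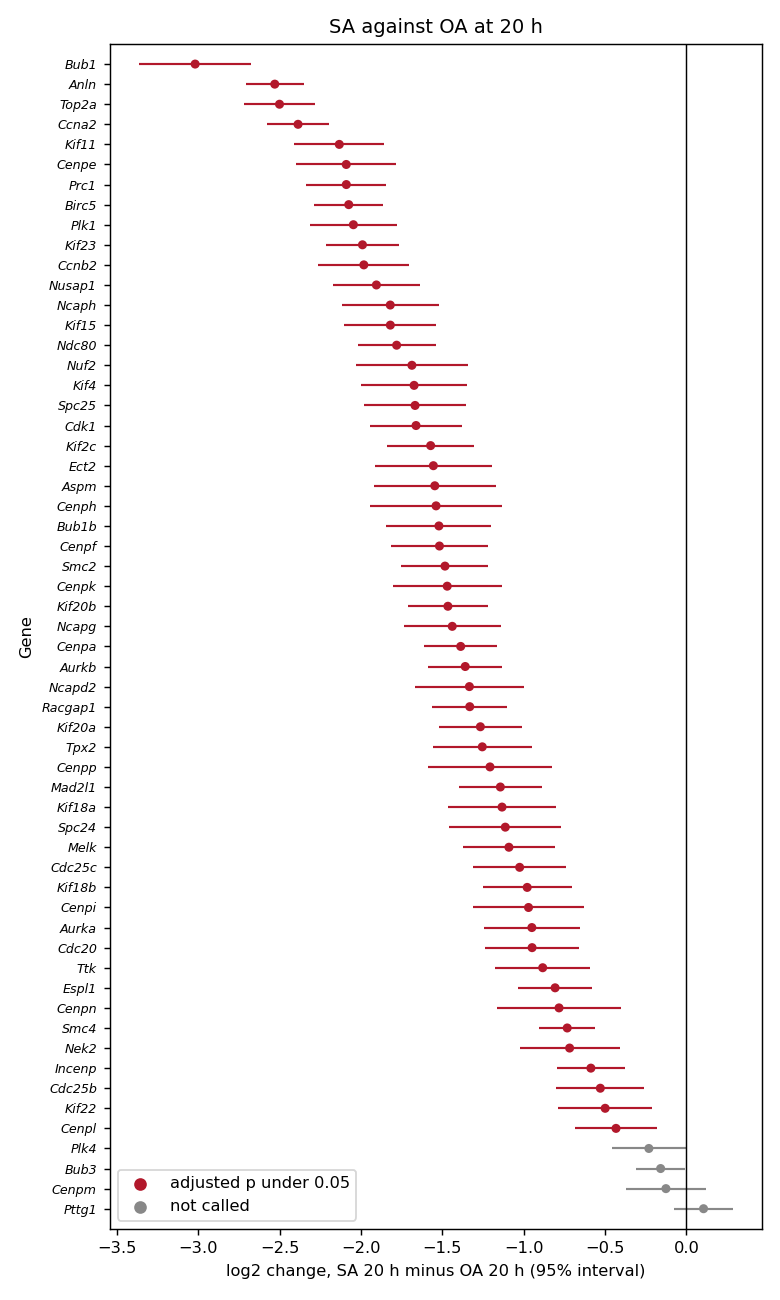
Log2 change of each of the 58 genes between SA and OA at 20 h (x axis, SA minus OA) with its 95% interval from limma, 1 gene per line in order of the change, 4 arrays in each group. The intervals of the 54 called genes lie below 0, and Plk4, Bub3, Cenpm and Pttg1, in grey, lie between -0.23 and 0.11.

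Besides Pttg1 and Cenpm, 2 other genes were not called at 20 h. Bub3, which carries Bub1 and BubR1 to kinetochores, read 6.63, 6.69, 6.52 and 6.55 with SA, against 6.74, 6.80, 6.76 and 6.72 with OA. Each SA array was below each OA array, yet the change was small, at -0.16 with a 95% interval of -0.31 to -0.01 (adjusted p = 0.163). Plk4, the kinase of centriole duplication, read 5.43, 5.65, 5.69 and 5.79 with SA, against 5.71, 6.18, 5.88 and 5.72 with OA, with overlap and a change of -0.23 (95% interval -0.46 to -0.00237, adjusted p = 0.189). For both genes the interval excluded a 2-fold fall.

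Many of the falls ended below the median of tested genes. With SA at 20 h, 28 of the 58 genes lay below the median of tested genes on every array, against 3 with OA at 20 h. The same count was 4 with SA at 5 h, 5 with OA at 5 h, 17 with LPS and 6 with vehicle. A median splits the tested genes evenly by definition, and the share of them below it on every array is not given here. The median of the means of the 58 genes was 3.95 with SA at 20 h, not far below the array medians, and 5.42 with OA at 20 h. Bub1, Anln, Kif11, Prc1 and Plk1 are among these 28 genes, and the sizes of their falls are uncertain for that reason, while Ccna2, Top2a, Cdk1, Ccnb2 and Cenpa remained above the median of their arrays.

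The falls were set beside the promoter letters as a description, with no test. The 32 genes with TTTGAA had a median change of -1.52, and the 18 without it -1.18. The ranges overlapped, from -2.53 to -0.16 with the motif and from -3.02 to 0.11 without it. The 35 genes with CCAAT had a median of -1.47 and the 15 without it -1.57. Bub3, with both motifs, changed by -0.16, whereas Mad2l1, with neither in the window, changed by -1.14.

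Other genes of the cell cycle, taken from lists of related function, fell in large part at 20 h with SA. Of 26 other kinetochore and centromere genes, 17 fell and none rose, among them the kinetochore scaffold Knl1 (-2.24) and the cohesin protector Sgo2a (-1.93). Of 27 other spindle and cytokinesis genes, 24 fell and none rose, with the hyaluronan-mediated motility receptor Hmmr at -2.14 and the proliferation antigen Mki67 at -2.07. Genes of DNA replication and S phase fell in 28 of 35 cases, led by the ribonucleotide reductase subunits Rrm2 (-2.37) and Rrm1 (-1.93). Of 18 subunits and partners of the anaphase-promoting complex, 5 fell, among them its ubiquitin-conjugating enzyme Ube2c (-1.75) and its inhibitor Fbxo5 (-1.49). Its second activator Fzr1 was not called (-0.08). Cohesin and condensin II genes fell in 7 of 14 cases. Among 18 regulators of mitotic entry and exit, 6 fell and 2 rose, with the kinase Mastl at -1.92, while Wee1, which restrains Cdk1, stood at -0.02 and was not called.

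Transcription factors of the cell cycle are known to act on such promoters. Of 20 E2F, MuvB and pocket-protein genes, 7 fell and none rose. Foxm1, an activator of late cell cycle genes, changed by -0.88 (adjusted p = 5.52e-05) and the repressor E2f8 by -1.14, while Mybl2 (-0.34, adjusted p = 0.216) and E2f1 (-0.34, adjusted p = 0.0522) were not called. Of 14 G1 regulators, 6 fell and 1 rose. Cyclin D1, Ccnd1, changed by -2.60, the inhibitors Cdkn1c by 2.29 and Cdkn2c by -1.29, and Cdkn1b (0.12) was not called. Cdkn1a had no probe set with a single symbol and was not analysed here.

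Macrophage markers moved in the same direction with SA at 20 h. Of 8 markers, 7 fell, with a median of -0.71, and their mean level ranged from 9.07 to 9.20 with SA, against 9.91 to 9.94 with OA. Of 12 housekeeping genes, 5 fell and none rose, with a median of -0.12. Among the markers of other cell types, 1 of 4 marrow progenitor genes fell, Cd34 by 0.80 on the log2 scale, and none of the dendritic cell, neutrophil, lymphocyte, erythroid, mast cell or stromal markers was called. The part of these shifts in the fall of the spindle genes was not tested.

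At 5 h the difference between the acids was small. Of the 58 genes, 7 fell with SA relative to OA and none rose, where 2.37% of tested genes fell and 3.3% rose. The arrays of the acids did not overlap for 8 of the 58 genes, against 10.4% of tested genes. The median change was -0.17, 50 genes lay below 0, and 15 passed an unadjusted p of 0.05, all of them lower with SA. Shares of all tested genes below 0 or under that unadjusted p are not given here, so nothing is read from these counts. The 7 called genes were Cenph (-0.89), Cenpk (-0.62), Mad2l1 (-0.56), Kif15 (-0.48), Kif20b (-0.41), Birc5 (-0.34) and Ccna2 (-0.32). Cenph and Cenpk belong to the same subcomplex of the centromere network. Cenph read 4.44, 4.14, 3.54 and 4.12 with SA at 5 h, against 5.08, 4.53, 5.15 and 5.04 with OA at 5 h, with all SA arrays lower. Mad2l1 read 6.15, 6.27, 5.88 and 5.93 with SA, against 6.47, 6.69, 6.74 and 6.56 with OA, again with no overlap (adjusted p = 0.00497). Bub1, with the largest difference at 20 h, showed none that could be called at 5 h, at 5.48, 6.05, 5.66 and 5.84 with SA, against 6.04, 5.71, 5.94 and 5.73 with OA. Its change was -0.10, with a 95% interval of -0.44 to 0.25. These calls rested in part on single arrays. With OA at 5 h, 2 genes were called without replicate 1, on which 51 of the 58 genes lay above their group mean, 4 without replicate 2 and 3 without replicate 3. With SA at 5 h, 4 genes were called without replicate 1 or replicate 2, and 2 without replicate 3.

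Some other lists were lower with SA at 5 h as well. Of 8 macrophage markers, 3 fell relative to OA, led by the Fc receptor Fcgr1 (-1.07), and the median was -0.13. Their mean level ranged from 9.51 to 9.56 with SA at 5 h, against 9.85 to 9.89 with OA at 5 h, with no overlap. Of 35 replication genes 9 fell and none rose, with a median of -0.31, and of 12 housekeeping genes none was called, with a median of -0.06. Of the markers of other cell types, Cd34 among 4 marrow progenitor genes and Cd3g among 5 lymphocyte genes fell. The part of these shifts in the values of the spindle genes at 5 h was not tested.

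Set against vehicle, of the same time by the labels, Mad2l1 (-0.59), Ccna2 (-0.43) and Smc4 (-0.35) fell with SA at 5 h. No other of the 58 genes was called, where 1.39% of tested genes fell and 1.94% rose. The median was -0.14. With any 1 of the 3 vehicle arrays left out, 1 gene was called. With OA at 5 h none of the 58 genes was called in limma, where 0.0502% of all tested genes fell and 0.0201% rose. At an unadjusted p of 0.05 there was 1 gene, Kif18a, at 0.39. The median change was 0.00, and each of the 58 intervals lay within 1 log2 unit of 0, the widest bounds being -0.60 and 0.75.

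**Figure D3:**
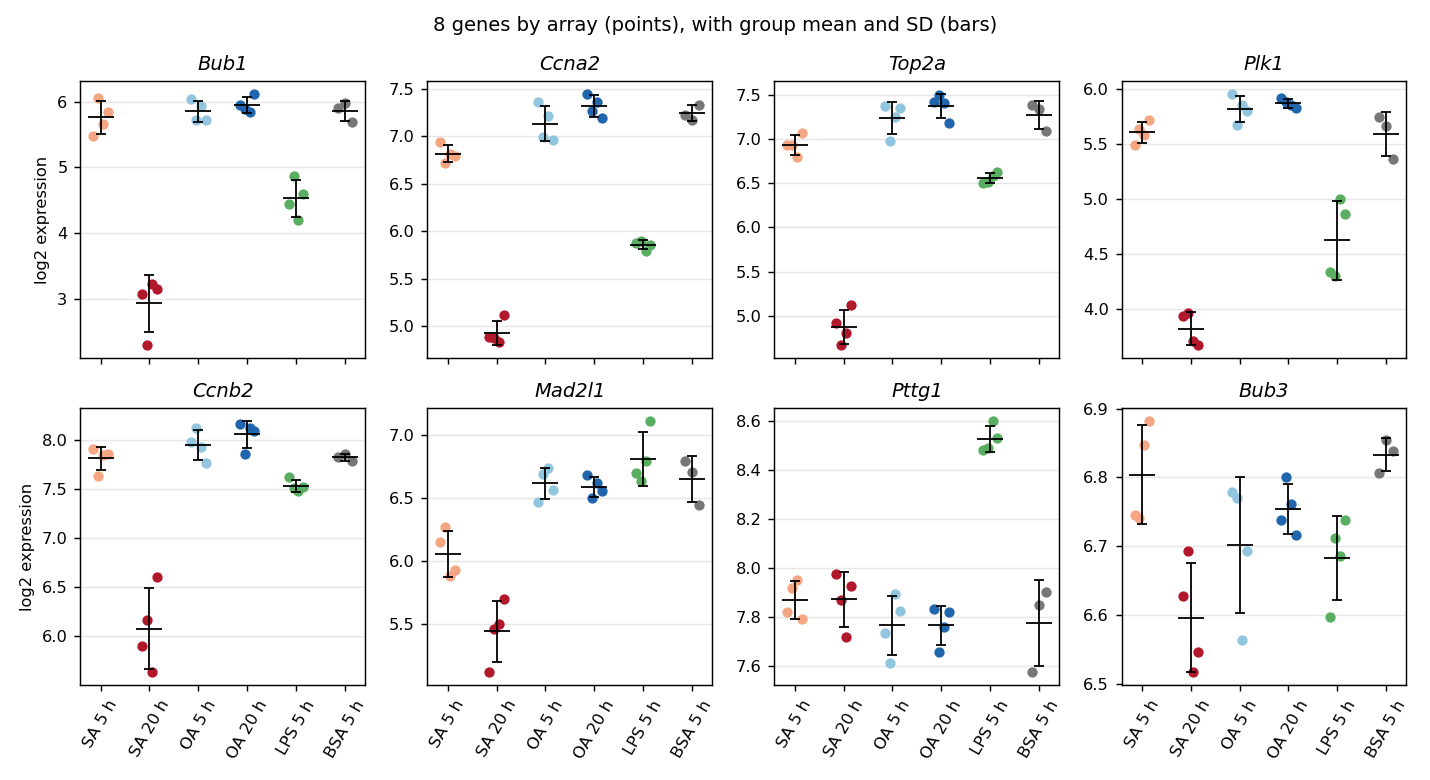
Log2 expression of 8 genes on every array (y axis), with treatment groups along the x axis, 1 point per array and a bar at the group mean. Bub1, Ccna2, Top2a, Plk1 and Ccnb2 are lowest with SA at 20 h, Mad2l1 is lower with SA at both times and not with LPS, Pttg1 is highest with LPS, and Bub3 stays between 6.52 and 6.88.

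Each acid was also compared between its 2 times. SA at 20 h against SA at 5 h gave 51 falls and no rise, where 6.57% of tested genes fell and 6.23% rose, with a median of -1.04. Without replicate 2 of SA at 20 h, 51 genes again fell and the median was -1.06. OA at 20 h against OA at 5 h gave no call, where 1.8% of tested genes fell and 2.58% rose, with a median of 0.14. For OA, 8 genes passed an unadjusted p of 0.05 and 7 of these were higher at 20 h. No share of all tested genes under that p is given here, so nothing is read from this count. The lowest adjusted p was 0.0619, for Kif23, and without replicate 1 of OA at 5 h 2 genes were called. Top2a stood at 4.92, 4.66, 4.80 and 5.12 with SA at 20 h, against 6.94, 6.94, 6.79 and 7.07 with SA at 5 h. With OA it stood at 7.42, 7.50, 7.41 and 7.18 at 20 h, against 7.37, 6.98, 7.25 and 7.35 at 5 h, where the groups overlapped.

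The change of the difference between the acids over time was tested directly, as the SA minus OA difference at 20 h less that at 5 h. It was called for 46 of the 58 genes, all negative, where 3.4% of tested genes were called in that direction and 1.58% in the other, and the median was -1.22. Without replicate 2 of SA at 20 h, the count was 46 and the median -1.18. The largest values were -2.92 ± 0.23 (SE) for Bub1, -2.36 ± 0.12 (SE) for Anln and -2.20 ± 0.15 (SE) for Top2a. Mad2l1, already lower at 5 h, had -0.58 and was not called (adjusted p = 0.0515). Cenph, at -0.64, was not called either (adjusted p = 0.255). For both genes the difference between the acids was already past the threshold at 5 h. Both fell further with SA between 5 h and 20 h, by 0.61 on the log2 scale for Mad2l1 and 1.10 for Cenph, but a widening of their difference from OA was not called. Cenpk (-0.85), Kif15 (-1.34), Kif20b (-1.06), Birc5 (-1.73) and Ccna2 (-2.07), also called at 5 h, were called in this test. Ttk (-0.61), Cenpi (-0.73) and Cenpn (-0.59), with no call at 5 h, were among the other genes it did not call.

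A comparison of 20 h with the vehicle of 5 h mixes time and treatment. In it, 52 of the 58 genes fell with SA at 20 h, where 8.02% of tested genes fell and 7.86% rose, at a median of -1.23. Without replicate 2 of SA at 20 h the count was 52 and the median -1.20. Bub3 passed the threshold here, at -0.24 (adjusted p = 0.038), as did Cenpm at -0.42, whereas Cdc25b, Kif22, Cenpl and Nek2 did not. With OA at 20 h none of the 58 genes was called against that vehicle, where 2.11% of tested genes fell and 2.59% rose. The median was 0.15, 9 genes passed an unadjusted p of 0.05 and 8 of them were higher. Without the share of all tested genes under that p, nothing is read from this count. These comparisons share arrays with those above and are not independent of them.

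**Figure D4:**
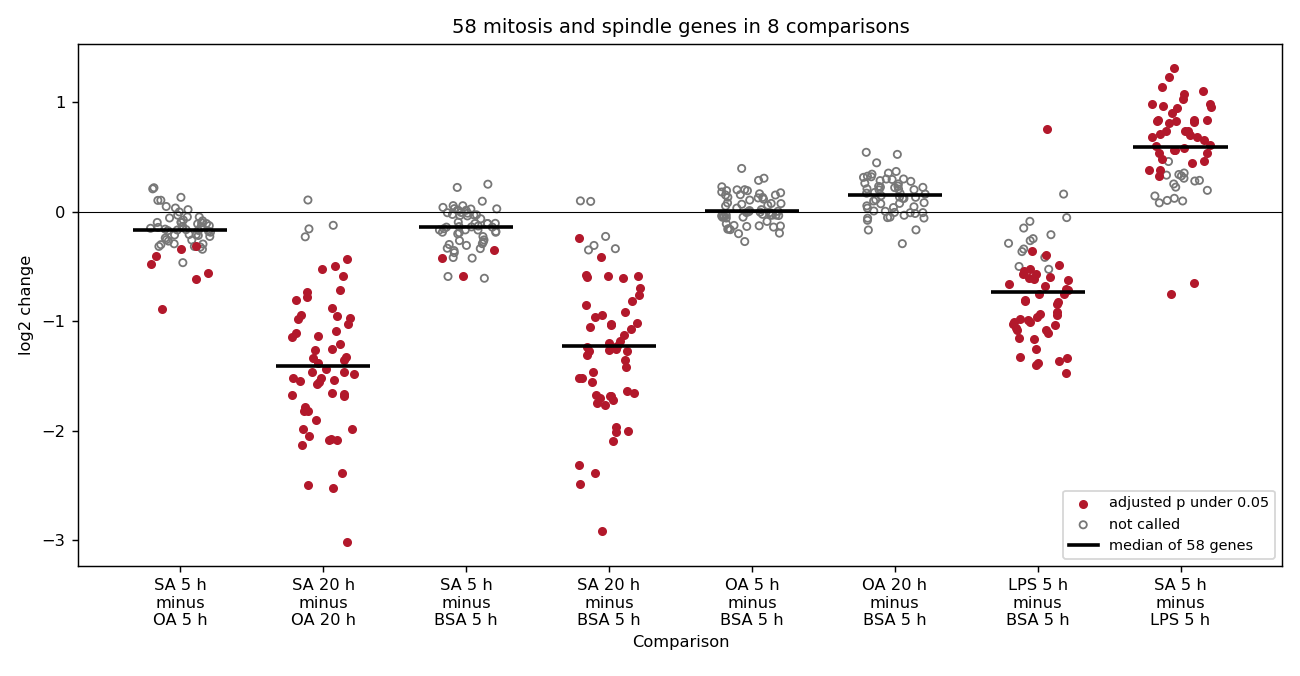
Log2 change of each of the 58 genes (points, y axis) in 8 comparisons along the x axis, filled where the adjusted p was under 0.05, with a line at the median. The medians are -0.17 and -1.41 for SA against OA at 5 h and 20 h, 0.00 and 0.15 for OA at 5 h and 20 h against vehicle, -0.73 for LPS against vehicle and 0.59 for SA against LPS at 5 h.

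Most of the same genes were lower after 5 h of LPS. BSA is recorded for vehicle and not for LPS, and its part in this comparison was not tested. Against vehicle, 44 of the 58 genes fell, where 13.2% of tested genes fell, and 1 rose, where 9.22% rose. LPS and vehicle arrays did not overlap for 51 of the 58 genes, against 29.8% of tested genes. The median was -0.73, and leaving out 1 array at a time gave between 39 and 46 falls. At least 2-fold falls were seen for 17 genes. No share of all tested genes at 2-fold is given here, so nothing is read from that count. The largest fall was that of Kif23, at 4.15, 4.48, 4.71 and 4.54 with LPS, against 5.95, 5.95 and 5.91 with vehicle. All LPS arrays were lower, at 2.77-fold (log2 change -1.47 ± 0.12 SE, adjusted p = 3.37e-10). Anln, the contractile ring scaffold, read 4.39, 4.34, 4.38 and 4.40 with LPS, against 5.77, 5.83 and 5.74 with vehicle. Ccna2 read 5.88, 5.90, 5.79 and 5.86 with LPS, against 7.23, 7.17 and 7.33 with vehicle, a change of -1.39 ± 0.10 (SE). By role, the falls covered all 10 kinesins and all 6 genes of chromosome structure. They covered 10 of 14 kinetochore genes, 7 of 9 genes of spindle assembly and cytokinesis, 7 of 11 kinases, cyclins and phosphatases, 3 of 5 checkpoint genes and 1 of 3 anaphase genes.

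Pttg1 moved the other way. Securin RNA read 8.48, 8.49, 8.60 and 8.53 with LPS, against 7.57, 7.85 and 7.90 with vehicle. It was 1.68-fold higher with no overlap (log2 change 0.75 ± 0.09 SE, adjusted p = 8.00e-07), and its partner separase, Espl1, was not called (-0.05, adjusted p = 0.825). Espl1 lay below the median of tested genes on every LPS and vehicle array, so the size of its change is uncertain. Mad2l1 did not pass the threshold with LPS. It read 6.70, 6.63, 6.79 and 7.11 with LPS, against 6.79, 6.71 and 6.45 with vehicle. The groups overlapped, and the change was 0.16 with a 95% interval of -0.11 to 0.43 (adjusted p = 0.472). Ccnb2, at 7.62, 7.51, 7.48 and 7.53 with LPS, against 7.82, 7.86 and 7.79 with vehicle, lay lower on every array, but its change of -0.29 was not called (adjusted p = 0.183). The interval of -0.59 to 0.01 excluded a 2-fold fall, while its kinase partner Cdk1 fell by 0.68 on the log2 scale. The other genes not called were Bub3, Plk4, Nek2, Melk, Cenpm, Cenpn, Cenpp, Spc24, Tpx2 and Nusap1.

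Related genes also fell with LPS. Of 27 other spindle and cytokinesis genes, 19 fell and none rose, although Mki67 was not called (-0.04, adjusted p = 0.864). Of 26 other kinetochore genes 14 fell and none rose, and of 35 replication genes 26 fell and 1 rose. Fbxo5, the inhibitor of the anaphase-promoting complex, changed by -1.92, the replication licensing inhibitor Gmnn by -1.41 and cyclin D1, Ccnd1, by -1.27, while cyclin D2, Ccnd2, changed by 2.48. Foxm1 fell by 0.63 on the log2 scale, E2f8 stood at 0.03 and was not called, and Wee1 changed by -1.01. Macrophage markers rose in 2 and fell in 3 of 8 cases, with a mean level between 9.88 and 9.99 with LPS and between 9.77 and 9.85 with vehicle. Of 12 housekeeping genes 6 fell and none rose. Of 4 marrow progenitor genes 1 fell, Cd34 by 0.79 on the log2 scale, and the mean level of that list lay between 4.01 and 4.11 with LPS, against 4.29 to 4.40 with vehicle, with no overlap. Of 7 neutrophil genes 2 rose, the granule genes Camp (0.81) and Ltf (0.51), and no marker of dendritic, lymphoid, erythroid, mast or stromal cells was called. The part of these shifts in the fall of the spindle genes was not tested.

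**Figure D5:**
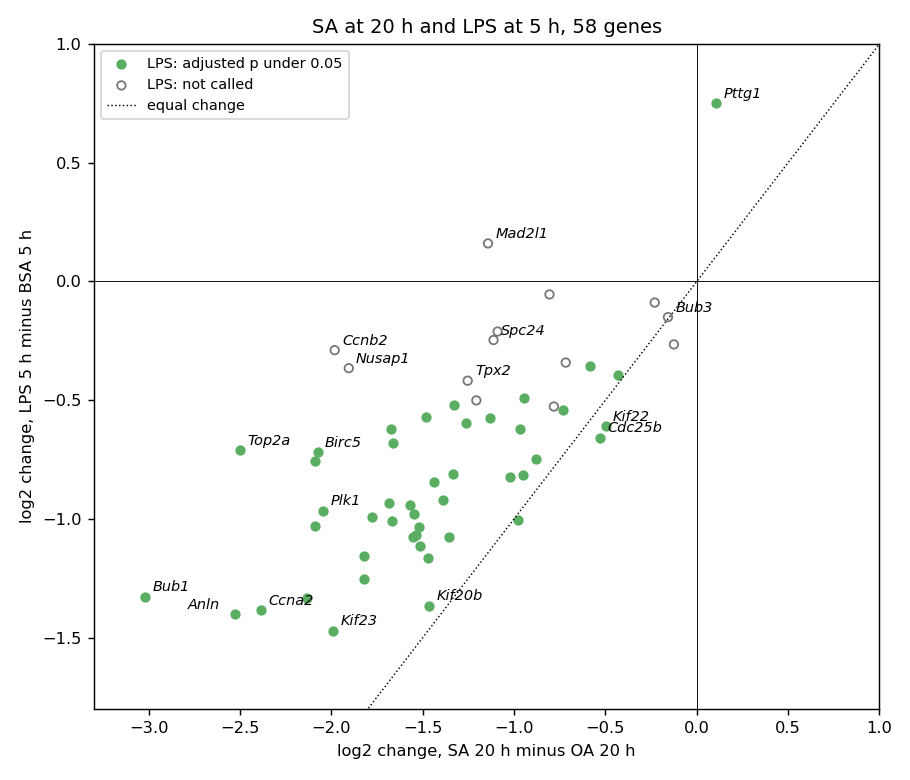
Log2 change of each of the 58 genes for SA against OA at 20 h (x axis) and for LPS against vehicle at 5 h (y axis), 1 point per gene, with selected genes named and both zero lines drawn. Points run from Bub1 at the left to Pttg1, alone in the upper right, and Mad2l1, Ccnb2 and Spc24 lie well left of 0 on the x axis and near 0 on the y axis.

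SA for 20 h and LPS for 5 h can be set side by side, since SA against OA at 20 h and LPS against vehicle share no arrays. The 44 genes that fell with LPS all fell with SA, which is 100% of the LPS list and 81.5% of the 54 genes of the SA list. Since 54 of the 58 genes fell with SA, nearly any list drawn from them would overlap it to a large extent, and nothing is read from the overlap. The change was more negative for SA in 54 of 58 genes. Exposure times differ, and the difference between the 2 changes was not tested. Across the 58 genes, Pearson's r between the changes was 0.683, as a description over genes that are not independent of each other. Mad2l1 stood at -1.14 in the SA comparison and 0.16 in the LPS comparison, Ccnb2 at -1.98 and -0.29, Top2a at -2.50 and -0.71, and Kif20b at -1.47 and -1.37.

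The 2 agents were compared directly at 5 h, where, by the labels, both have arrays of the same time. SA at 5 h stood above LPS for 40 of the 58 genes, where 13% of tested genes were higher, and below it for 2, where 9.11% were lower. The median was 0.59. Kif23 read 5.62, 5.72, 5.76 and 6.03 with SA, against 4.15, 4.48, 4.71 and 4.54 with LPS. Bub1 read 5.48, 6.05, 5.66 and 5.84 with SA, against 4.44, 4.86, 4.20 and 4.60 with LPS. For both the groups lay apart, by 1.31 ± 0.11 (SE) for Kif23 and 1.23 ± 0.17 (SE) for Bub1. The 2 genes lower with SA were Mad2l1, by -0.75 ± 0.12 (SE, adjusted p = 3.67e-05), and Pttg1, by -0.66 ± 0.09 (SE, adjusted p = 1.92e-06). The LPS arrays also serve in the comparison with vehicle. At 5 h, Mad2l1 was past the threshold and lower with SA in each of the comparisons with OA, with vehicle and with LPS, which share the same 4 SA arrays and are not independent of each other.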

How the data were processed

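RNA of 23 samples was measured on single-channel arrays. Per the submitters' processing notes, the deposited log2 values were made by RMA, which corrects background, normalizes between arrays and summarises the probes of a probe set. The notes also name limma without giving its role. Of 35556 probe sets, the probe table gives a single symbol for 21789, several for 1621, and does not list 12146. The genes tested, 19938 in number, are those with a single-symbol probe set, and for 999 genes with more than 1 (Top2a among the genes described) the brightest on average was taken. Group means were fitted over all arrays with limma 3.58.1 (R 4.3.3), moderating the variances by empirical Bayes. P-values are two-sided, adjusted by Benjamini-Hochberg over all genes of each of 11 comparisons, and called under 0.05. Signal over background was not assessed.

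The genes, the related lists and the comparisons were chosen with earlier results of these data known. Genes named were the set itself, with values array by array for a fixed panel, for the largest changes and for genes not called, plus up to 4 called genes of largest change per related list and 10 regulators. Promoters of 50 genes came from RefSeq, build GRCm38.p6, and were scanned on both strands with Python 3.11.15. Figures were drawn with matplotlib 3.10.9. The fit was tested on simulated data. As alternatives, the fit was repeated with a trended, robust prior variance, with arrays centred or quantile-normalized, with array weights, without the dimmest 25% of genes, with the mean of probe sets or every probe set, on the compared groups only, with the replicate number as a block, and without each array in turn.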

Additional observations from a re-analysis of the deposited data

Results flagged for a closer look

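In groups of 4 arrays, a single array stood far from the other 3 for 17 of 290 gene and group combinations, 5.86% of them, and chance flags about 1 in 20. On the arrays of SA at 20 h these were Bub1 (2.29 on replicate 2), Spc25 (3.42 on replicate 2), Ncapd2 (4.65 on replicate 2), Cenpl (4.66 on replicate 1) and Spc24 (4.33 on replicate 4). With OA at 20 h they were Nuf2 (5.03 on replicate 3), Kif2c (4.91 on replicate 2), Kif18a (4.48 on replicate 1), Anln (5.67 on replicate 4) and Ncapg (4.96 on replicate 4). With SA at 5 h they were Cenpa (7.16 on replicate 4), Ndc80 (6.11), Spc25 (5.35) and Birc5 (6.89), the last 3 on replicate 2. With OA at 5 h they were Cdc25b (5.29 on replicate 4), Cenph (4.53 on replicate 2) and Spc24 (5.07 on replicate 2). No LPS array was among them.

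The difference between SA and OA also changed between 5 h and 20 h by a test of that change (limma, adjusted p under 0.05). The log2 values of the 20 h difference less the 5 h difference were -2.92 for the checkpoint kinase Bub1, -2.20 for Top2a and -2.07 for Ccna2. They were -1.91 for Kif11, -1.83 for Plk1, -1.75 for Prc1, -1.73 for Birc5 and -1.51 for Cdk1. The values were -1.46 for Ndc80 and for Tpx2, -1.22 for Aurkb and for Cenpa, -0.89 for Cdc20 and -0.51 for Smc4.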

How the results depend on the processing

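For SA against OA at 20 h, 54 genes fell under each of the 9 alternatives other than leaving out an array, and 53 to 54 with any 1 array left out. The median change moved by less than the spread between replicates in 190 of 190 recomputations over all comparisons. Some of these could not move it. A variance trend, a fit of the compared groups alone and a test of every probe set leave the estimated changes as they are. The median kept its direction in each comparison except OA against vehicle at 5 h, where it lay near 0 throughout, between -0.02 and 0.06. Of the counts of called genes, 168 of 190 stayed within 1.5 times. Reversal was checked for the fixed panel of genes only. Of its 3610 values no called one was reversed, 53 lost their call and 25 gained one. Counts near 0 moved. For SA against OA at 5 h, 7 genes became 3 with array weights, 3 in a fit of the compared groups alone and 2 when every probe set was tested, and 2 to 6 with 1 array left out. For SA against vehicle at 5 h, 3 became 1 in a fit of the compared groups alone and 1 to 4 with 1 array left out. For OA at 20 h against OA at 5 h, 0 became 1 with a variance trend, with array weights or without the dimmest 25% of genes, and 0 to 2 with 1 array left out. For OA at 20 h against vehicle, 0 became 2 with array weights, 1 without the dimmest 25% of genes and 2 in a fit of the compared groups alone, and 0 to 1 with 1 array left out. The cause was not tested.

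Over all tested genes, the calls for OA against vehicle at 5 h were 14, and 29 with a variance trend or 7 in a fit of the compared groups alone. OA at 20 h against vehicle gave 937 and, with array weights, 1537. In a fit of the compared groups alone, SA against OA at 5 h gave 660 in place of 1131, and SA against vehicle at 5 h 373 in place of 664. Without replicate 2 of vehicle the last count was 389. For OA against vehicle at 5 h it was 9 without replicate 2 of vehicle and 7 without replicate 3.

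Replicate numbers gave little sign of pairing: of 55 same-numbered pairs, 7 correlated above 0.1, with r from -0.12 to 0.20. All 7 involved SA at 20 h. Between SA and OA at 20 h, r was 0.11, 0.20, 0.03 and 0.11 for replicates 1 to 4. Different-numbered pairs were not examined, so no verdict on pairing is given. With the replicate number as a block, 54 of the 58 genes fell for SA against OA at 20 h, 6 at 5 h, 46 with LPS and 51 for SA at 20 h against vehicle. Signal over background was not assessed, so the size of a fall to below the array median is uncertain.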
